A study of Gallus gallus with 6 samples.

Results

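The genes described here encode histone variants and the chaperones that carry histones to and from DNA. They were measured in DT40, a chicken B cell line, in wild type cells and in 2 mutant lines named K11 and K11-5. The 10 genes were H2AFY, H2AFY2, H2AZ2 and H3F3B for the variants, and ASF1A, CHAF1A, CHAF1B, HIRA, NASP and NAP1L1 for the chaperones. They were chosen by name, and every probe set that the array's annotation gave to 1 of them was taken, which made 14 probe sets of the 38439 probe sets analysed and 10 genes of 13051 with a gene symbol. All 10 symbols were on the array.

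The study hybridised RNA to 6 single-colour Affymetrix chicken arrays, 2 for each group. By the labels, K11 is an endogenous H1 knock out and K11-5 an H1 complete null. The comparison of these lines with wild type cells asks how expression differs in lines so labelled. All 3 groups, wild type cells included, grew exponentially at 39.5 °C with 100 nM Z-VAD-FMK, a pan-caspase inhibitor that blocks apoptosis, and gave total RNA. The sources used here do not give whether a line is 1 clone, or how K11 and K11-5 differ beyond these words. The labels do not state whether replicate arrays stand for different cultures. The p-values thus reflect the spread between arrays, which may be technical. In RNA of a whole culture, a change in every cell and a change in the share of cells that express a gene cannot be told apart.

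DNA is wound around core histones, and linker histone H1 sits where it enters and leaves the particle. Most core histones are made in S phase, whereas variants such as H2A.Z, macroH2A and H3.3 are made through the cell cycle and take the place of the standard H2A and H3. Histones do not travel alone: ASF1 hands H3 and H4 to CAF-1, which loads them behind the replication fork, or to HIRA, which loads H3.3 outside replication, while NASP holds a soluble store of H3 and H4 and NAP1L1 carries H2A and H2B. NASP and NAP1L1 are both known to bind linker histone H1 as well.

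Trimmed mean intensities ran from 48.0 to 77.7 over the arrays as deposited, so values were put on a common scale by quantile normalization, and "signal" below means that normalized intensity. Linker histones were looked up by 3 names, each with 1 probe set. That of HIST1H111R was dim, at 9.2 and 1.2 for wild type, 33.0 and 21.2 for K11, and 34.7 and 16.8 for K11-5. Only that of HIST1H111L was bright. Its signals were 1645 and 2186 for wild type, 5810.2 and 1597 for K11, and 4793 and 4442 for K11-5. The K11 arrays lay far apart, on either side of wild type, and both K11-5 arrays lay above it. This probe set was thus not lower in every array of the lines labelled as an endogenous H1 knock out and an H1 complete null. The sources used here do not give where it lies relative to a deletion. It therefore does not check the labels, and K11 and K11-5 below mean the arrays so labelled. The ratio of the 3' to the 5' probe sets of a control gene is a sign of RNA quality. For beta-actin it was 7.15 and 8.10 for wild type, 9.23 and 9.31 for K11, and 5.28 and 6.29 for K11-5. For GAPDH it was 0.89 and 0.92 for wild type, 0.82 and 0.83 for K11, and 0.80 and 0.91 for K11-5. Of 11 B cell marker genes, 9 were above background in every array. The summed signal of the 11 was 6261 and 8115 for wild type, 10584 and 12179.9 for K11, and only 3685 and 1461 for K11-5. The brightest CD74 probe set read 1023 and 1244 for wild type, 5335 and 5009 for K11, and 935.1 and 248.2 for K11-5. Of 20 tested B cell probe sets, 8 had a positive and 12 a negative log2 fold change in K11 against wild type (median -0.09). In K11-5 against wild type, 2 were positive and 18 negative (median -1.15). The part of the B cell markers in the results below was not tested. Of 8 T cell marker genes, 6, among them CD3E and CD4, were below background in every array. CD3D and CD8A were not. CD3D read 1153 and 1174 for wild type, 1167 and 864.6 for K11, and 213.2 and 397.3 for K11-5. It was lower in K11-5 than in wild type by limma's test (adjusted p = 0.00308). The brighter CD8A probe set read 11.6 and 14.3 for wild type, 25.3 and 29.7 for K11, and 11.4 and 14.0 for K11-5.

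The variants and chaperones were expressed in all 3 groups, and 1 of them, H2AZ2, passed the test of a difference from wild type. A background floor of 11.4 was set from control probe sets with no target in the samples, and 13 of the 14 probe sets lay above it in all 6 arrays. The exception was the second CHAF1B probe set, which was below background everywhere, at 0.26 to 8.6, and was not tested. Over the tested probe sets the signals ran from 28.3 to 6768, but probe sets differ in how well they bind, so levels of different probe sets were not compared. By the platform's naming, the probe sets of CHAF1A, CHAF1B, NAP1L1 and H2AFZ, the first and second of NASP and the second of NPM3 belong to a class whose probes can match transcripts of several genes.

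**Figure D1:**
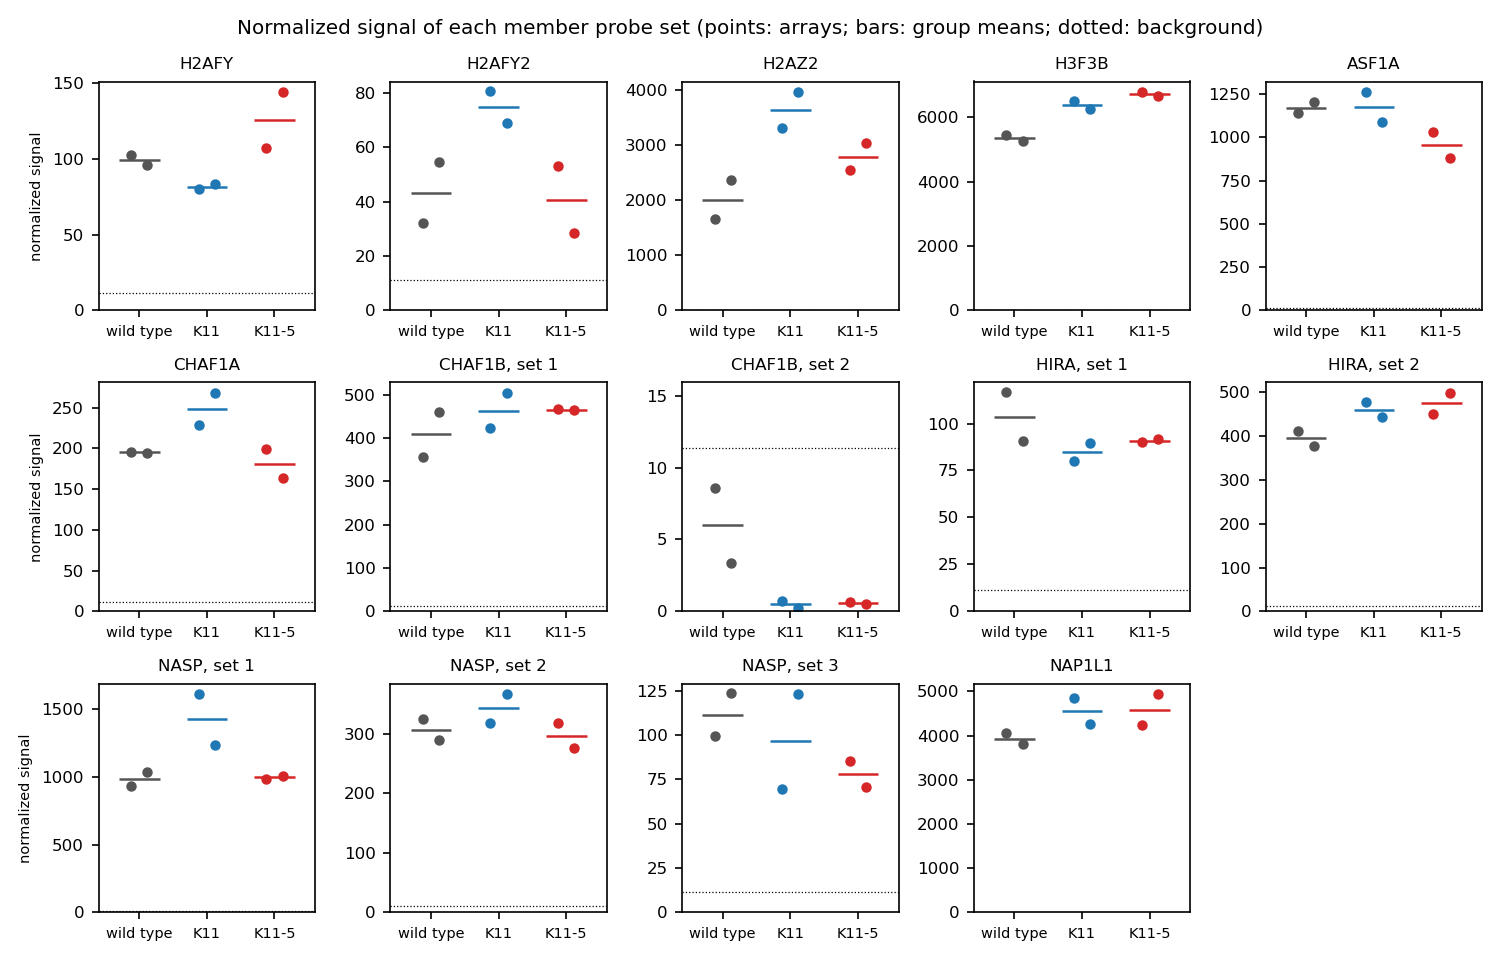
Normalized signal of each variant and chaperone probe set in each array, on a linear axis, with 2 points per group. The points of most probe sets lie close together across wild type, K11 and K11-5, and H2AZ2 is higher in both K11 arrays (3321 and 3965) than in both wild type arrays (1655 and 2377).

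Limma's moderated test was used, with p-values adjusted over all 23063 probe sets tested and a threshold of 0.05. H2AZ2 in K11 against wild type was the 1 value past this threshold among these genes. In K11-5 against wild type, 0 of the 13 tested probe sets passed, where 5.46% of all tested probe sets did. In K11 against wild type, 1 of 13 passed, where 7.71% of all did. In K11-5 against K11, 0 of 13 passed, against 2.87% of all. At an unadjusted p under 0.05 the counts were 2, 3 and 4 of 13, against 19%, 21.7% and 17.6% of all, so all of these counts were within 2 of what the background share gives for 13. Counted in 1 direction, 1 of 13 was higher in K11 against wild type, against 3.75% of all. The groups did not overlap for 8 of 13 probe sets in K11-5 against wild type, 9 for K11 against wild type and 9 for K11-5 against K11, against 53.2%, 52% and 45.5% of all. The background shares themselves moved when 1 array was left out. Such a fit has 1 array in a group and less precision, so the change cannot be assigned to the array left out. Leaving out 1 array in turn, the calls over all tested probe sets ranged from 155 to 1963 in K11-5 against wild type and from 261 to 2262 in K11 against wild type, both lowest without wild type replicate 2. They ranged from 81 to 1082 in K11-5 against K11, lowest without K11-5 replicate 2. With all arrays these counts were 1260, 1778 and 661. The comparisons of K11 and K11-5 with wild type share the same wild type arrays and are not independent of each other.

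The intervals give the size of change that may have been missed under this normalization, given the spread between these arrays. They do not cover the effect of scaling. For ASF1A in K11 against wild type, the interval ran from -0.33 to 0.32. On the deposited scale its value was -0.58, or -0.26 relative to the median of all tested probe sets. Of the probe sets not called, the 95% confidence interval of the log2 fold change lay within ±1 for 12 of 13 (K11-5 against wild type), 11 of 12 (K11 against wild type) and 11 of 13 (K11-5 against K11). Standard errors of the log2 fold changes ran from 0.09 to 0.36. The median log2 fold change of the 13 was 0.02 for K11-5 against wild type, 0.21 for K11 against wild type and -0.21 for K11-5 against K11, beside medians over all tested probe sets of -0.00, -0.01 and 0.02. In simulated data of this design, 200 of 23063 probe sets were changed, drawn at random from all tested ones, dim ones included. The log2 changes recovered in K11-5 against wild type were 0% at 0.5, 13.5% at 1 and 60% at 2. Fewer were changed there than the 1260 called in the data, so the adjusted threshold was harder to reach. These rates are for all tested probe sets and do not give the share that would be recovered among these 13.

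**Figure D2:**
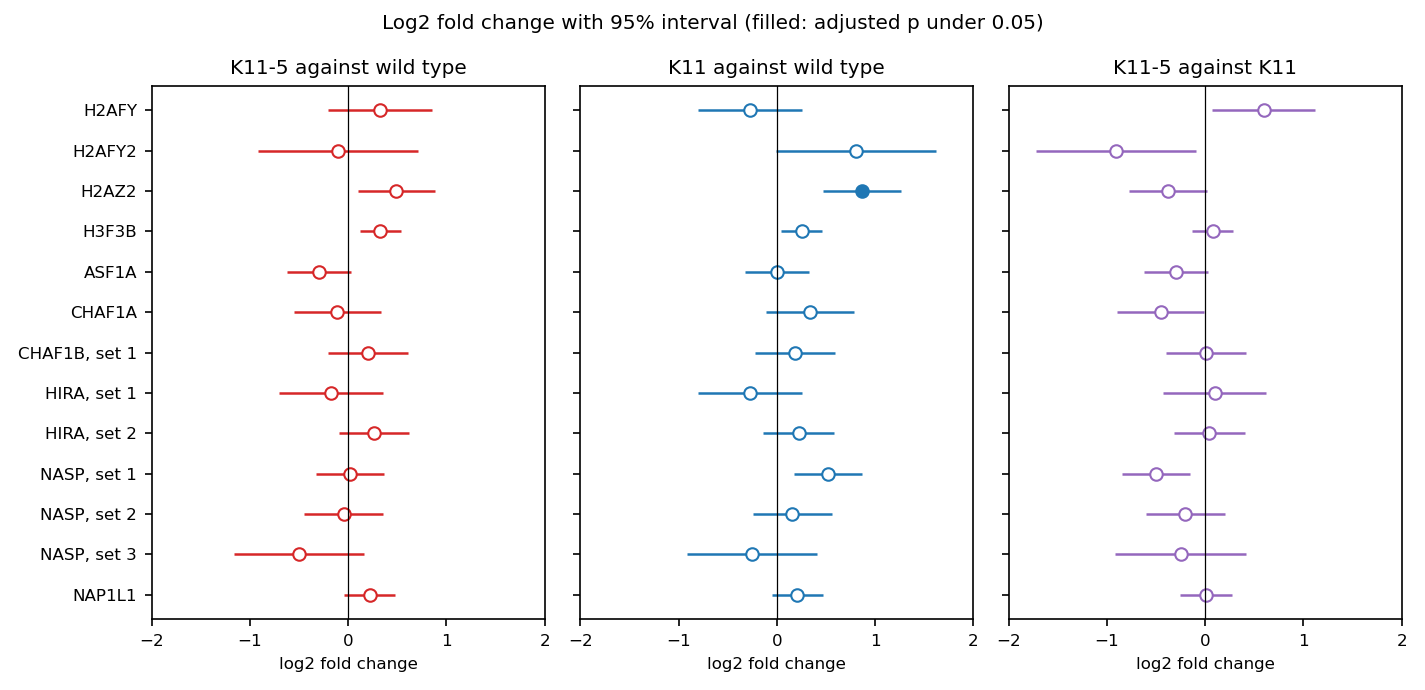
Log2 fold change of each tested probe set in the 3 comparisons, with bars for the 95% confidence interval. Most intervals cross 0, and H2AZ2 for K11 against wild type, at 0.87, is the 1 value past the threshold.

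H2AZ2 encodes H2A.Z.2, a form of the variant H2A.Z, which marks promoters and enhancers. Its probe set (gene on chromosome 22) had signals of 1655 and 2377 for wild type, 3321 and 3965 for K11, and 2551 and 3047 for K11-5. Both K11 arrays stood above all others, both K11-5 arrays came next, and the groups did not overlap. As deposited the lines did overlap, at 2845 and 3384 for K11 and 2655.5 and 3246 for K11-5. Means of the normalized signals were 2016 ± 510.5 (SD, n = 2) in wild type, 3643 ± 455.6 for K11 and 2799 ± 350.8 for K11-5.

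H2AZ2 rose 1.83-fold in K11 against wild type, with a log2 fold change of 0.87 ± 0.18 (SE) and limma's adjusted p = 0.0175. In K11-5 against wild type the log2 fold change was 0.49 ± 0.18, with a 95% confidence interval from 0.10 to 0.89, and did not pass (adjusted p = 0.155). The direct comparison of K11-5 with K11 gave -0.38 ± 0.18 (adjusted p = 0.302), so the lines were not shown to differ. A moderated F-test over the 3 groups also called H2AZ2 (adjusted p = 0.0309) and none of the other 12 probe sets, where it called 10.1% of all tested.

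The median gene of chromosome 22 also lay above wild type in both lines. Over the 97 genes measured there, H2AZ2 included, the median log2 fold change was 0.40 in K11 and 0.49 for K11-5 against wild type. H2AZ2 lay 0.47 above that median in K11 and 0.0007 above it in K11-5. For the other members, the medians of their chromosomes lay between -0.02 and 0.10 in the same comparisons. The actin ratio was also highest in K11, while the GAPDH ratio was not. Neither the part of the chromosome nor that of RNA quality in the H2AZ2 result was tested.

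The call for H2AZ2 depended on the scale of the arrays. It was also lost in some fits with 1 array left out, which have less precision. The log2 fold change in K11 was positive in all 15 alternative settings, from 0.46 to 1.15, and passed the threshold in 10. On the deposited scale it was 0.46 (adjusted p = 0.0957) and with arrays centred on their medians 0.53 (adjusted p = 0.0869). On those scales the median of all tested probe sets was itself -0.31 and -0.25. Relative to that median, H2AZ2 was 0.78 higher in K11 on both, and 0.88 higher after quantile normalization. Without the mean-variance trend the value stayed at 0.87 but did not pass (adjusted p = 0.212). Nearly all calls were lost in that setting: 21 of all 23063 tested probe sets passed in K11 against wild type, beside 1778 with the trend. Without wild type replicate 1 the value was 0.62 (adjusted p = 0.151), and without K11 replicate 2 it was 0.73 (adjusted p = 0.0611).

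**Figure D3:**
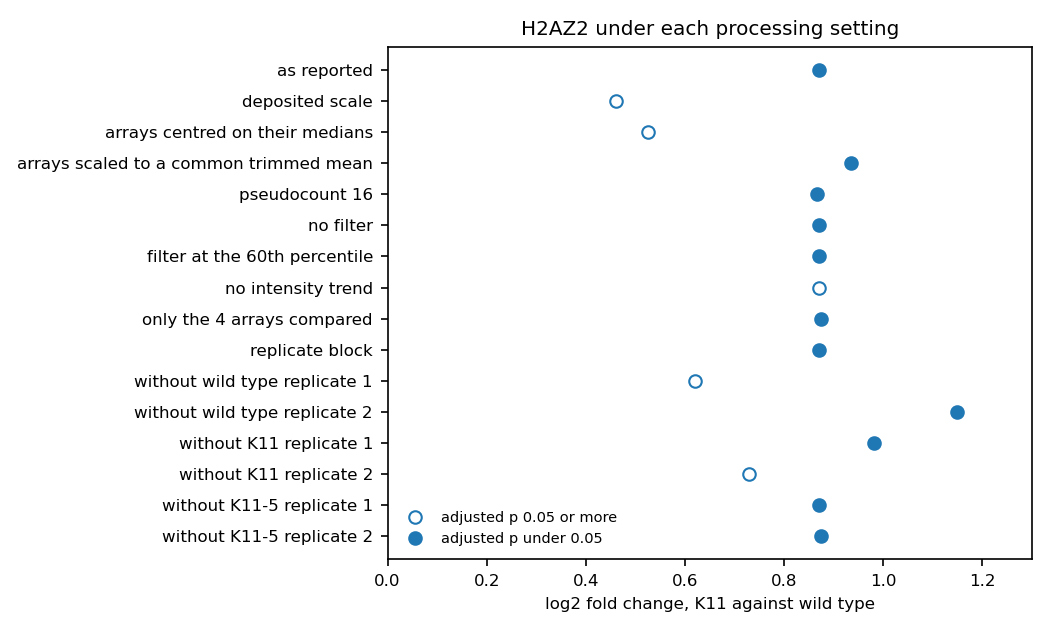
Log2 fold change of H2AZ2 for K11 against wild type in the setting reported here and in each of the 15 alternatives. All points lie above 0, between 0.46 and 1.15, and 10 of the alternatives are past the threshold.

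The other H2A.Z gene, H2AFZ, which encodes H2A.Z.1, did not rise with H2AZ2. Its probe set (gene on chromosome 4) read 4310 and 4607 for wild type, 3287 and 4158 for K11, and 4934 and 4607 for K11-5. Both K11 arrays were the lowest. The log2 fold change in K11 against wild type was -0.27 ± 0.13 (SE), which did not pass (adjusted p = 0.254). On the deposited scale it was -0.56 and did pass (adjusted p = 0.0281), but relative to the median of all tested probe sets it was -0.24 there and -0.26 after quantile normalization.

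The ratio of 2 probe sets within an array is not moved by a factor common to the array, but quantile normalization is not such a factor and does move it. As deposited, the log2 ratio of H2AZ2 to H2AFZ, set to a mean of 0 in wild type, was -0.18 and 0.18 for wild type, 1.09 and 0.95 for K11, and 0.13 and 0.48 for K11-5. After quantile normalization it was -0.21 and 0.21, then 1.18 and 1.10, then 0.22 and 0.57. Both K11 arrays were above all others on either scale, while one K11-5 array lay within the range of wild type or at its edge. This pair was chosen after its values were seen, so no test was made, and the ratio shows unequal change of the genes without saying which of them moved.

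H3F3B encodes H3.3, the replacement form of histone H3 that is laid down at active genes. Its probe set (gene on chromosome 18) had signals of 5449 and 5252 for wild type, 6494 and 6253 for K11, and 6768 and 6658 for K11-5. Wild type was lowest and its arrays did not overlap with those of either line. The log2 fold change in K11-5 against wild type was 0.33 ± 0.09 (SE), or 1.25-fold, with a 95% confidence interval from 0.12 to 0.53, and it missed the threshold (adjusted p = 0.0725). It passed in 5 of the 15 alternative settings, with values from 0.30 to 0.33. In K11 against wild type it was 0.25 ± 0.09 (adjusted p = 0.139). In K11-5 against K11 it was 0.07 ± 0.09 (adjusted p = 0.735), an interval from -0.13 to 0.28.

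A second gene for H3.3 went the other way in K11-5. It is called H3F3C by the array's annotation and carries the synonym H3F3A in RefSeq (gene on chromosome 3). Signals were 1194 and 1314 for wild type, 1568.5 and 1424 for K11, and 967.6 and 763.5 for K11-5, with no overlap between any groups. It was 1.74-fold lower in K11-5 than in K11, a log2 fold change of -0.80 ± 0.15 (SE; adjusted p = 0.0275). Against wild type the values were -0.54 ± 0.15 for K11-5 (adjusted p = 0.0725) and 0.25 ± 0.15 for K11 (adjusted p = 0.382). The difference between the lines kept its sign in all 15 alternatives but passed in only 5 of them, and on the deposited scale it was -0.39 (adjusted p = 0.252). In K11 against wild type the sign turned with the scale, to -0.33 on the deposited one, or -0.02 relative to the median of all tested probe sets. Another H3F3C probe set was dim and was not called.

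Within an array, the ratio of H3F3B to H3F3C was higher in K11-5 than in the other groups on both scales. As deposited, its log2 value with the wild type mean at 0 was 0.08 and -0.08 for wild type, 0.36 and 0.40 for K11, and 0.94 and 1.14 for K11-5. After quantile normalization it was 0.10 and -0.10, then -0.04 and 0.04, then 0.71 and 1.03, so K11 lay inside the range of wild type and above it only as deposited. This pair too was chosen after its values were seen.

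**Figure D4:**
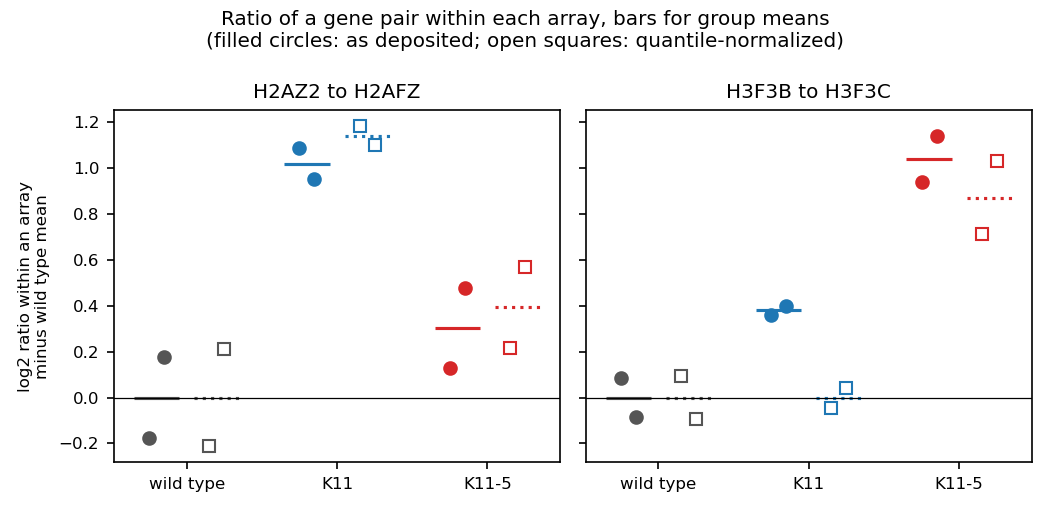
Log2 ratio within each array of H2AZ2 to H2AFZ (left) and of H3F3B to H3F3C (right), with the wild type mean set to 0, as deposited (filled circles) and quantile-normalized (open squares), with bars for group means. On both scales the H2AZ2 ratio is highest in K11 and the H3F3B ratio in K11-5, while the H3F3B ratio of K11 is above wild type as deposited (0.36 and 0.40) and within it once normalized (-0.04 and 0.04).

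The macroH2A genes, whose large variants carry an extra domain and are known from silent chromatin, showed no change past the threshold. H2AFY, for macroH2A1 (gene on chromosome 13), had signals of 102.4 and 96.2 for wild type, 79.8 and 83.7 for K11, and 107.3 and 144.4 for K11-5. The K11 arrays were lowest, the K11-5 arrays highest, and the groups did not overlap. Between the lines, K11-5 against K11, H2AFY had a log2 fold change of 0.60 ± 0.24 (SE), with a 95% confidence interval from 0.07 to 1.12, and an adjusted p of 0.224. It was 0.32 ± 0.24 for K11-5 (adjusted p = 0.525) and -0.27 ± 0.24 for K11 (adjusted p = 0.563) against wild type.

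H2AFY2, for macroH2A2 (gene on chromosome 6), is a paralog of H2AFY. Its signals were 32.0 and 54.5 for wild type, 80.7 and 68.9 for K11, and 53.0 and 28.3 for K11-5. Both K11 arrays were above the rest, while wild type and K11-5 overlapped. This probe set also had the widest interval, from -1.72 to -0.09 for its log2 fold change of -0.91 ± 0.36 (SE) for K11-5 against K11 (adjusted p = 0.23). In K11 against wild type it was 0.80 ± 0.36 (adjusted p = 0.235), and in K11-5 it was -0.10 ± 0.36 (adjusted p = 0.924). H2AFY and H2AFY2 thus had opposite signs in each comparison, and none of these values passed.

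ASF1A, which takes newly made H3 and H4 to the assembly complexes, read 1140.1 and 1204 for wild type, 1260.2 and 1089 for K11, and 1033 and 879.8 for K11-5 (gene on chromosome 3). The K11-5 arrays were the lowest, and wild type lay inside the range of K11. Its log2 fold change was -0.30 ± 0.15 (SE) for K11-5 against wild type, with a 95% confidence interval from -0.62 to 0.03 (adjusted p = 0.31). It was -0.00 ± 0.15 for K11 (adjusted p = 0.999).

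CAF-1 is the complex that assembles nucleosomes behind the fork, and CHAF1A and CHAF1B encode its large and middle subunits. CHAF1A (gene on chromosome 28) had signals of 195.9 and 194.7 for wild type, 228.4 and 267.9 for K11, and 199.2 and 163.2 for K11-5. Both K11 arrays were highest. Its log2 fold change was 0.34 ± 0.20 (SE) for K11 against wild type (adjusted p = 0.371) and -0.45 ± 0.20 for K11-5 against K11, where the 95% confidence interval ran from -0.90 to -0.01 and the adjusted p was 0.273.

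CHAF1B (gene on chromosome 1) read 355.8 and 461.5 for wild type, 423.6 and 503.8 for K11, and 467.2 and 464.5 for K11-5. All 3 groups lay close together, and K11 overlapped with both wild type and K11-5. CHAF1B had a log2 fold change of 0.20 ± 0.18 for K11-5 (adjusted p = 0.621) and 0.19 ± 0.18 for K11 (adjusted p = 0.615) against wild type. Between the lines it was 0.01 ± 0.18, with a 95% confidence interval from -0.40 to 0.42.

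HIRA, the chaperone that places H3.3 outside replication, had 2 probe sets that disagreed in sign. The first (gene on chromosome 15) read 116.6 and 90.6 for wild type, 80.3 and 89.6 for K11, and 90.0 and 91.5 for K11-5. The second read 412.6 and 377.1, then 478.6 and 442.8, then 451.2 and 498.1. The wild type arrays were the lowest in the second and held the highest value in the first. Log2 fold changes against wild type were -0.18 ± 0.24 (SE) for K11-5 and -0.27 ± 0.24 for K11 with the first, and 0.26 ± 0.16 and 0.22 ± 0.16 with the second. None passed, with adjusted p from 0.428 to 0.759. No direction can be given for HIRA.

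NASP, the store keeper of H3 and H4 that also binds H1, had 3 probe sets. The first (gene on chromosome 8) had signals of 935.1 and 1040.0 for wild type, 1611 and 1239.8 for K11, and 985.1 and 1011 for K11-5. Both K11 arrays were above the other 4, whereas the K11-5 arrays lay between those of wild type. Its log2 fold change was 0.52 ± 0.16 (SE) for K11 against wild type, with a 95% confidence interval from 0.17 to 0.87 (adjusted p = 0.0756). In K11-5 against K11 it was -0.50 ± 0.16 (adjusted p = 0.126), while K11-5 differed from wild type by 0.02 ± 0.16 (adjusted p = 0.972).

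The NASP value rested on the arrays used. Without K11 replicate 2 it passed in K11 against wild type, at 0.70 (adjusted p = 0.0166), and in K11-5 against K11, at -0.68 (adjusted p = 0.032). On the deposited scale the K11 value turned to -0.07, or 0.24 relative to the median of all tested probe sets. The second probe set read 276.3 to 367 over the 6 arrays, with a log2 fold change of 0.16 ± 0.18 for K11 against wild type. The third read 69.7 to 123.5, with -0.25 ± 0.30. These 2 probe sets did not pass in any comparison, and the third had the opposite sign to the first in K11.

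NAP1L1, the carrier of H2A and H2B (gene on chromosome 1), had signals of 4057 and 3809 for wild type, 4846 and 4274 for K11, and 4246 and 4934 for K11-5. The wild type arrays were lowest, and the lines overlapped. NAP1L1 had log2 fold changes against wild type of 0.22 ± 0.12 (SE) in K11-5 (adjusted p = 0.358) and 0.21 ± 0.12 in K11 (adjusted p = 0.34). Between the lines it was 0.01 ± 0.12 (adjusted p = 0.981).

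Some of the chaperones, such as CAF-1, work in S phase, while HIRA acts outside replication. The values of all of them stand beside those of 24 S phase genes, of which 23 were above background in every array. The summed signal of those genes was 15049.8 and 16825 for wild type, 16964 and 18195 for K11, and 15287 and 14724 for K11-5. That sum was higher in both K11 arrays than in every other array, but the closest arrays, of K11 and wild type, read 16964 and 16825. The signals of CHAF1A and the first NASP probe set were also highest in both K11 arrays. Those of ASF1A, CHAF1B, HIRA, NAP1L1 and the other NASP probe sets were not. Of 36 tested S phase probe sets, 22 had a positive and 14 a negative log2 fold change in K11 against wild type (median 0.12). Past the threshold, 1 rose and 1 fell there. In K11-5 against K11, 0 rose and 3 fell (median -0.23). In K11-5 against wild type, 1 rose and 3 fell (median -0.12). The shares of all tested probe sets called in these comparisons were 7.71%, 2.87% and 5.46%. The part of the share of cells in S phase in the chaperone values was not tested.

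The deposited and centred scales moved the median of all tested probe sets, though not each probe set equally, and some members changed sign with them. The first NASP probe set, at 0.52 in K11 against wild type, was among these. Over 4 scalings, the sign against wild type turned for 6 of 13 probe sets in K11, those of CHAF1A, CHAF1B and NAP1L1, the second of HIRA and the first and second of NASP. It turned for 1 of 13 in K11-5, the first of NASP. Between the lines it turned for 4 of 13, those of H3F3B, ASF1A and NAP1L1 and the second of NASP. None of these was a call. Relative to the median of all tested probe sets on each scale, the sign turned for 3 of 13 in K11 against wild type (ASF1A, CHAF1B and the second of NASP), for 1 in K11-5 against wild type (the first of NASP) and for 1 between the lines (CHAF1B). On that relative scale CHAF1A was 0.17 to 0.35 higher in K11 than in wild type, NAP1L1 0.22 to 0.30 and the first NASP probe set 0.24 to 0.53.

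Other variants, chaperones and exchange factors were read from a list of 50 names, of which 33 had probe sets here. In K11-5 against wild type, 2 of 70 tested probe sets passed, NCL higher and YEATS4 lower, and the median of the 70 log2 fold changes was -0.05. In K11 against wild type, 3 of 70 passed, NCL and RBBP4 higher and 1 NPM3 probe set lower (median 0.09). In K11-5 against K11, 4 of 70 passed, both NPM3 probe sets higher and H3F3C and SPTY2D1 lower (median -0.12). The counts were lower than the share of all tested probe sets gives for 70 in both comparisons with wild type, and higher in K11-5 against K11.

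NCL encodes nucleolin, an abundant nucleolar protein that also acts as a histone chaperone. Of its 3 probe sets 2 were tested and 1 was called. The called one (gene on chromosome 9) had signals of 2484 and 2559.5 for wild type, 5690 and 4793 for K11, and 3601 and 4057 for K11-5. The groups did not overlap and K11 was highest, the same order as H2AZ2. As deposited, the called NCL probe set overlapped between the lines, at 5246 and 4181 for K11 and 3788 and 4375 for K11-5. It rose 2.07-fold in K11, a log2 fold change of 1.05 ± 0.12 (SE; adjusted p = 0.0016), and by 0.60 ± 0.12 on the log2 scale in K11-5 (adjusted p = 0.0206). The K11 value passed in 14 of 15 alternatives and the K11-5 value in 8. As for H2AZ2, the median gene of the chromosome was above wild type. Over the 294 genes measured on chromosome 9 the median was 0.47 in K11 and 0.44 in K11-5. The called NCL probe set lay 0.58 and 0.16 above these medians. The other tested one read 29.0 and 43.4 for wild type, 56.8 and 64.1 for K11, and 45.4 and 40.3 for K11-5. It gave 0.73 ± 0.30 in K11 (adjusted p = 0.181) and 0.25 ± 0.30 in K11-5 (adjusted p = 0.713), where it overlapped with wild type.

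NPM3, a nucleoplasmin family member, had the largest of the 4 called differences between the lines. Its first probe set (gene on chromosome 6) had signals of 669.2 and 723.9 for wild type, 370.1 and 432.4 for K11, and 1002 and 933.5 for K11-5. It was below wild type in both K11 arrays and above it in both K11-5 arrays. The log2 fold change was -0.80 ± 0.15 (SE) for K11 against wild type (adjusted p = 0.0148) and 1.27 ± 0.15, or 2.41-fold, in K11-5 against K11 (adjusted p = 0.00484). The second probe set had 2162 and 1994, then 1658 and 1784, then 2400.0 and 2809, and gave 0.59 ± 0.13 for K11-5 against K11 (adjusted p = 0.041). The difference between the lines passed in 14 of 15 alternatives for the first and in 7 for the second.

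SPTY2D1, the counterpart of the yeast H3 and H4 chaperone Spt2, showed the reverse order. Signals were 196.6 and 204.6 for wild type, 282.5 and 262.7 for K11, and 147.5 and 108.5 for K11-5 (gene on chromosome 5). K11 was above wild type and K11-5 below it. The log2 fold change in K11-5 against K11 was -1.09 ± 0.21 (SE; adjusted p = 0.0278), and it passed in 8 of 15 alternatives.

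RBBP4 encodes a histone binding subunit that CAF-1 shares with other complexes. Of its 4 probe sets 1 rose in K11 (gene on chromosome 23), with signals of 1226 and 1372 for wild type, 1775 and 2112 for K11, and 1435 and 1554 for K11-5, and a log2 fold change of 0.58 ± 0.14 (SE; adjusted p = 0.0325). The other 3 gave -0.00, 0.02 and 0.65 and were not called. On the deposited scale the first was at 0.02, or 0.33 relative to the median of all tested probe sets, and it passed in 4 of 15 alternatives.

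YEATS4 encodes a reader of acetylated histones found in the complexes that place H2A.Z. Its called probe set (gene on chromosome 1) had signals of 136.4 and 138.4 for wild type, 70.9 and 104.7 for K11, and 64.3 and 60.9 for K11-5. It was 2.16-fold lower in K11-5, a log2 fold change of -1.11 ± 0.25 (SE; adjusted p = 0.0327), which passed in 10 of 15 alternatives. In K11 the value was -0.66 ± 0.25 (adjusted p = 0.155). Of its other 2 probe sets, 1 gave -0.33 in K11-5 and was not called, and 1 was too dim to be tested.

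**Figure D5:**
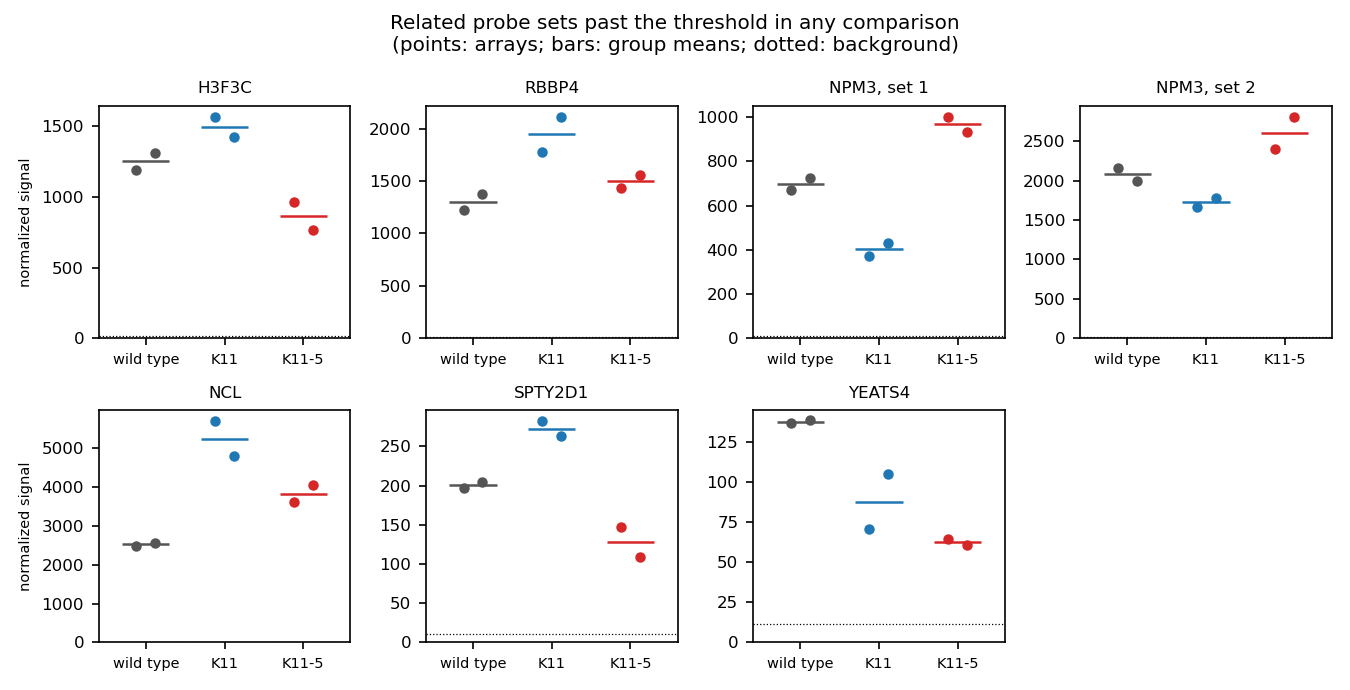
Normalized signal, on a linear axis, of the related probe sets past the threshold in at least 1 comparison, with 2 points per group. NCL is highest in K11 (5690 and 4793), the first NPM3 probe set is lowest there (370.1 and 432.4), and YEATS4 is lowest in K11-5 (64.3 and 60.9).

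The probe sets of other genes whose signals followed a member most closely were found by Pearson correlation of log2 signals over the 6 arrays, among 17171 candidates, for the 3 members of smallest p in the F-test. H2AZ2 was followed most closely by DTL (r = 0.999), GRK4 (r = 0.991) and TMEM86A (r = 0.990). The first NASP probe set was followed by SMC3 (r = 0.996), TMEM156 (r = 0.994) and ZBTB11 (r = 0.992). H3F3B was followed by ACSS1B, ADCY6 and CRMP1, each at r = 0.994, all of which were below background in both wild type arrays. ADCY6 was also below background in both K11 arrays, at 10.3 and 7.8, and ACSS1B in 1 of them. TMEM86A was below background in all wild type and K11-5 arrays. The points are 6 arrays in 3 groups that share their scaling, and the highest of so many candidates was taken, so these values are a description only.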

How the data were processed

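The authors deposited linear probe set intensity values for 38535 probe sets on 6 arrays. Per the submitters' processing notes these were made with GCOS, with no version, signal algorithm or scaling given in the sources used here. After 96 control probe sets were left out, intensities were quantile-normalized and transformed as log2(value + 2), and 23063 probe sets with a mean signal of at least 5.83 (the 40th percentile) were tested. limma 3.58.1 in R 4.3.3 fitted the 3 groups together (eBayes with trend, 3 residual and 6.96 prior degrees of freedom), with Benjamini-Hochberg adjustment over all tested probe sets and two-sided tests. The script was tested on simulated data. Background was the 95th percentile of 23 control probe sets. Gene names came from the platform's annotation, which gave 1 symbol to 27168 probe sets, several to 177 and none to 11094; 26853 matched RefSeq GRCg7b, used for chromosomes. Named were all members' probe sets, related probe sets past the threshold, and the 3 closest probe sets for 3 members. The members and lists were chosen with earlier results of these data known. No deviation shared by arrays of the same replicate number was seen: deviations from group means correlated by 0.06, -0.04 and -0.03 over the 3 pairs of groups. These values cannot show whether such arrays were handled together. Replicate arrays correlated across probe sets with r of 0.924 to 0.939. The number of arrays limits the precision.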

Additional observations from a re-analysis of the deposited data

Results flagged for a closer look

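Probe sets of 3 related genes stood on opposite sides of wild type in the lines, in both arrays of each, and differed between the lines by limma's test. H3F3C, the second H3.3 gene, had a log2 fold change of -0.80 in K11-5 against K11, beside 0.25 (K11) and -0.54 (K11-5) relative to wild type. The first NPM3 probe set had 1.27 between the lines, beside -0.80 (K11) and 0.47 (K11-5) relative to wild type, and the second had 0.59, with -0.27 and 0.32. SPTY2D1, the Spt2 counterpart, had -1.09 between the lines, with 0.44 and -0.66. Of these values against wild type, only that of the first NPM3 probe set in K11 passed limma's test (adjusted p = 0.0148). The others had adjusted p from 0.0725 to 0.382. Of all tested probe sets, 2.87% passed between the lines, but the share that also lay on opposite sides of wild type was not counted. On the deposited scale the value in K11 against wild type turned to -0.33 for H3F3C and -0.05 for SPTY2D1 (-0.02 and 0.27 relative to the median of all tested probe sets), and kept its sign for both NPM3 probe sets. No array of the 14 member probe sets could be tested as an outlier, since each group has 2.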

How the results depend on the processing

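Over 15 alternatives, 13 probe sets and 3 comparisons, 585 member values were recomputed. Of these, 5 lost their call, all H2AZ2 in K11, 7 gained one, and 38 changed sign without a call on either side; no call reversed. Of 0 member calls in K11-5 against wild type, 1 (H3F3B) appeared with a pseudocount of 16, a filter at the 60th percentile, or a fit of the 4 arrays compared, and leaving out 1 array gave 0 to 1. The 1 call in K11 against wild type became 0 on the deposited scale, on median-centred arrays and without the trend (5, 5 and 1 at an unadjusted p under 0.05), and ranged from 0 to 1 without 1 array, being 0 without wild type replicate 1 and being NASP without K11 replicate 2. The 0 in K11-5 against K11 ranged from 0 to 1, the 1 being NASP without K11 replicate 2. The 2 related calls in K11-5 against wild type became 7 on centred arrays, 1 with no filter, 0 without the trend and 5 with 4 arrays, and 0 to 5 without 1 array. The 3 in K11 became 9 on the deposited scale (1 higher, 8 lower), 8 centred and 0 without the trend, and 1 to 5 without 1 array. The 4 between the lines became 2 with no filter, 0 without the trend and 1 with 4 arrays, and 1 to 7 without 1 array; on the deposited scale all 4 were higher. Without the trend the related counts at an unadjusted p under 0.05 were 5, 8 and 10. Over all tested probe sets the calls without the trend were 27, 21 and 0, beside 1260, 1778 and 661 with it. With the replicate number as a block the counts stayed at 0, 1, 0, 2, 3 and 4, and H2AZ2 in K11 had an adjusted p of 0.0039. Over all tested probe sets, K11 against wild type gave 865 higher and 913 lower, 316 and 2615 on the deposited scale, 462 and 2973 on centred arrays, and 964 and 868 at a common trimmed mean.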

Other observations

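ATRX encodes the remodeller that, with DAXX, places H3.3 in silent chromatin. It was named after its values were seen, because its 7 tested probe sets shared a sign. Their log2 fold changes in K11-5 against wild type ran from -0.53 to -0.17 and in K11-5 against K11 from -0.63 to -0.26, and none passed limma's threshold (smallest adjusted p 0.0898 and 0.0556). Against wild type, K11 values ran from -0.21 to 0.22. The probe set of smallest p read 606.7 and 551.3 for wild type, 639.7 and 629.2 for K11, and 412.7 and 403.1 for K11-5. Its K11-5 arrays lay below all others. It passed the moderated F-test over the 3 groups (adjusted p = 0.0461), as did 10.1% of all tested probe sets. The 7 probe sets read the same RNA of the same gene and are not replicates.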
